A study of Mus musculus with 10 samples.

Results

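The cytokine receptor chains described here are 10 genes chosen by name, Il2rg, Il2ra, Il15ra, Il4ra, Il21r, Il6ra, Il27ra, Il10ra, Ifngr1 and Ifngr2, and found in the count table by their Entrez gene IDs. They make up 10 of the 27179 genes in the table, and all 10 passed the filter on low counts, among 12655 genes tested. Levels were measured by RNA-sequencing in γδ T cells of the effector memory (EM) phenotype, FACS-sorted by CD3 and γδTCR as CD62L- CD44+ splenocytes and not restimulated. The pre-exposed group held 5 female C57BL/6 mice that were infected at 6 to 8 weeks of age with 50000 red blood cells carrying P. chabaudi, a malaria parasite of rodents, and were treated with chloroquine and pyrimethamine from day 14. The naïve group held 5 female C57BL/6 mice that were never infected but received the same drugs. Spleens were taken 12 weeks after treatment ended, and each mouse gave 1 library. The comparison addresses whether EM γδ T cells of mice with a past, cured infection carry different levels of the chains through which they sense cytokines.

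Cytokine receptors of this kind are assembled from private chains, which bind a particular cytokine, and shared chains, which serve several cytokines and carry the signal. The common gamma chain (Il2rg) serves the receptors for IL-2, IL-4, IL-15 and IL-21, gp130 (Il6st) serves those for IL-6 and IL-27, and the receptors for IL-10 and IFNγ each join a ligand-binding chain to a signalling partner. Ligand binding activates Janus kinases and then STAT transcription factors. In T cells IL-2 and IL-15 support growth and survival, IL-10 and IL-27 restrain inflammation, and IFNγ, a main product of many γδ T cells, activates macrophages.

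Pre-exposed libraries held 8747888 to 22542832 counts (median 13075118), against 6587199 to 19993444 (median 14262979) in naïve libraries. Trdc, the constant region of the T cell receptor delta chain, was present in every library. It had 1141 to 3626 counts per 1e+06 of the scaled library size (CPM) in pre-exposed mice and 1826 to 3873 CPM in naïve mice. The sum of 7 markers listed for γδ T cells was 4317, 10683, 11782, 9238 and 14822 CPM in pre-exposed mice 1 to 5. Naïve mice had 6477 to 11230 CPM, so pre-exposed mouse 1 was the lowest library. The 7 were Trdc, Tcrg-C1, Tcrg-C2, Tcrg-C4, Cd3e, Cd3d and Cd3g. The Cd3 genes are shared with αβ T cells, so the sum does not measure γδ T cells alone. Trdc, Tcrg-C2 and Tcrg-C4 were also lowest in pre-exposed mouse 1, at 1141, 388 and 532 CPM. Of the 7, Cd3d alone passed edgeR's test, higher on average in pre-exposed mice (log2 fold change 1.02, adjusted p = 0.0460). Tcrg-C1 had 337, 521, 744, 540 and 1089 CPM in pre-exposed mice 1 to 5, against 820 to 1098 CPM in naïve mice. Pre-exposed mouse 5 stood apart. Its 10 most abundant genes took 24.7% of its counts, against 5.61 to 10.2% in the other libraries, and it was the lowest of the 10 libraries for 29.1% of all genes tested. The sample descriptions of pre-exposed mice 2 to 4 lack the index pair given for the other libraries, and what that difference marks is not stated. How far a gene lay from its average over the libraries followed gene length differently in these mice (Spearman's rho across genes -0.54 to -0.24) than in pre-exposed mice 1 (0.27) and 5 (-0.14) and in naïve mice (0.26 to 0.41). Results for the receptor chains that rest on these libraries are given with and without them. Calls of the cell type markers come only from the fit with all 10 libraries, unless a marker is also a receptor chain.

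The chains covered a wide range of levels. Per kilobase of gene length, Il2rg was the most abundant of the 10, with 1110 ± 338 CPM per kilobase in pre-exposed mice and 1029 ± 231 in naïve mice (SD, n = 5 each). Ifngr1 followed with 354 ± 139.5 CPM per kilobase in pre-exposed mice and 557 ± 141 in naïve mice. Then came Il27ra with 144 ± 59.9 in pre-exposed mice and 164 ± 38.9 in naïve mice, and Il21r with 69.5 ± 19.2 in pre-exposed mice and 73.7 ± 8.25 in naïve mice. In both groups the ranges over mice of Il2rg, Ifngr1 and Il27ra did not overlap one another, and Il27ra and Il21r were apart in naïve mice but overlapped in pre-exposed mice. The other 6 chains lay between 6.21 and 25.8 CPM per kilobase in pre-exposed mice and between 3.41 and 22.9 in naïve mice. Among these, most neighbours in the order of levels overlapped in their ranges. The exception was Il6ra, the least abundant chain in both groups, which was apart from Il10ra in naïve mice, at 3.41 ± 0.895 against 8.98 ± 1.67 CPM per kilobase. The levels per length of Il15ra, Ifngr2 and Il6ra depend on the gene model, since with GENCODE exon lengths their pre-exposed means became 17.4, 5.27 and 2.40 CPM per kilobase, in place of 25.8, 9.44 and 6.21. Il6ra was the lowest of the 10 with either length.

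**Figure D1:**
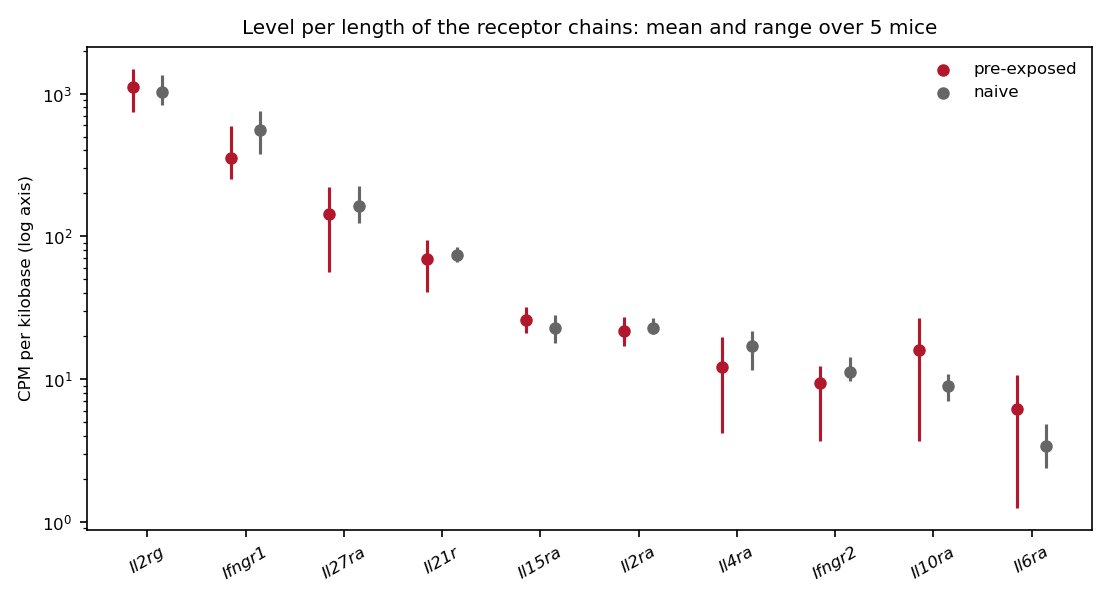
Mean level (points) and lowest to highest mouse (lines) of each chain in CPM per kilobase of gene length, on a log axis, in 5 pre-exposed and 5 naïve mice, with the chains in the order of their naïve means. Il2rg was the highest and Il6ra the lowest chain in both groups, and for 9 of 10 chains the coefficient of variation was larger in pre-exposed mice, as it was for 77% of all 12655 genes tested.

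None of the 10 chains passed the test between the groups (0 of 10 at an adjusted p under 0.05 in edgeR's quasi-likelihood test), where 6.29% of all genes tested did, 5.12% higher and 1.17% lower in pre-exposed mice. At an unadjusted p under 0.05, 3 of 10 chains stood out, 2 higher and 1 lower, against 24.3% of all genes, 15.6% higher and 8.73% lower. These were Il6ra and Il10ra, with higher levels in most pre-exposed mice, and Ifngr1, with lower levels in most. DESeq2, voom and TREAT at a 1.5-fold threshold also called 0 of 10 chains, where they called 10.7%, 0.759% and 0.0158% of all genes, and 2, 1 and 0 chains had an unadjusted p under 0.05 by these tools, against 24.4%, 24.8% and 6.97% of all genes. Over the 10 chains the median log2 fold change, pre-exposed over naïve, was -0.08, and over all genes tested it was 0.02. In 0 of 10 chains did the groups separate fully, where 2.77% of all genes lay wholly higher and 2.17% wholly lower in pre-exposed mice. The 95% interval of the log2 fold change stayed within 1 in either direction for 6 of 10 chains.

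**Figure D2:**
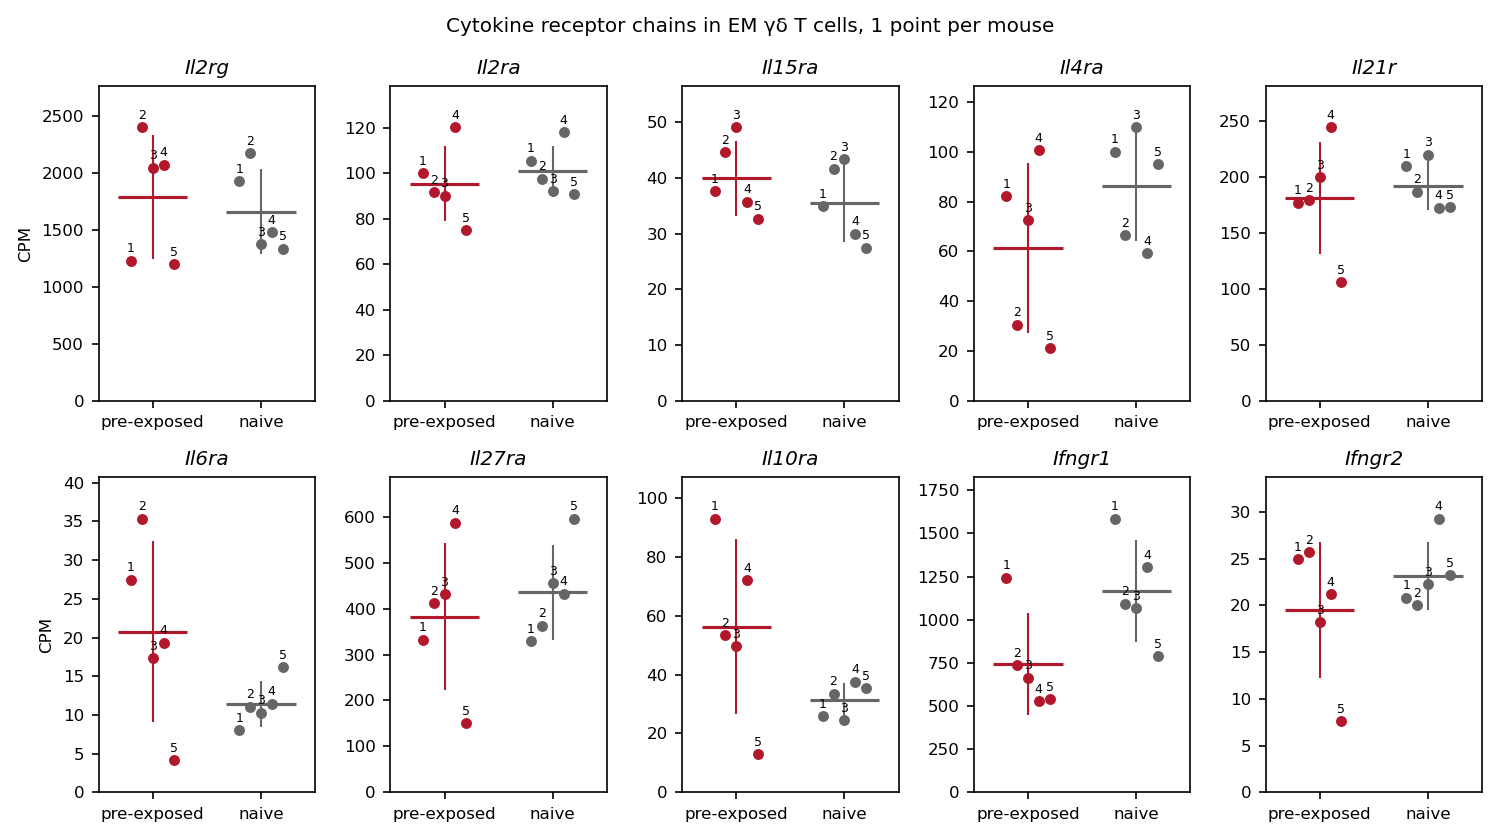
Level of each chain in CPM in every mouse, with the mouse number beside its point, pre-exposed mice on the left and naïve mice on the right of each panel, the group mean as a horizontal line and 1 SD as a vertical line. Each panel has its own axis from 0. Pre-exposed mouse 5 was the lowest library in 8 of 10 panels.

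Il2rg, on chromosome X from 101264385 to 101268255 (GRCm38, as are all positions here), encodes the common gamma chain. It had 1230.0, 2402, 2047, 2074 and 1197 CPM in pre-exposed mice 1 to 5, against 1929, 2176, 1375, 1481 and 1336 CPM in naïve mice 1 to 5. The groups overlapped broadly, with pre-exposed mice 2 to 4 near the top of the naïve range or above it and mice 1 and 5 below it. The log2 fold change was 0.11 (standard error 0.26, 95% interval -0.44 to 0.66, adjusted p = 0.831 from edgeR). Its sign depended on the libraries, and with pre-exposed mice 1 and 5 alone against the naïve mice it was -0.40.

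Il2ra (chromosome 2, 11642792 to 11693194) encodes the alpha chain that gives the IL-2 receptor its high affinity and is also a marker of regulatory T cells. Its levels were 100.3, 91.8, 90.2, 120.4 and 75.2 CPM in pre-exposed mice and 106, 97.7, 92.2, 118 and 91.0 CPM in naïve mice. Of all chains it had the smallest standard error, and the pre-exposed values bracketed the naïve ones. Its log2 fold change was -0.08 (standard error 0.21, 95% interval -0.52 to 0.36, adjusted p = 0.849 from edgeR). The gene overlaps a long non-coding RNA gene, Gm39760, and since the strand setting of the counting is not given, reads of the shared stretch are uncertain.

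Il15ra (chromosome 2, 11705172 to 11733985), the neighbour of Il2ra, encodes the high-affinity chain for IL-15, which on other cells presents the cytokine to T cells. It had 37.6, 44.6, 49.1, 35.7 and 32.7 CPM in pre-exposed mice, against 34.9, 41.6, 43.4, 30.01 and 27.5 CPM in naïve mice. The groups overlapped, and Il15ra was the only chain whose lowest library was a naïve one, mouse 5. Across groups the log2 fold change was 0.17 (standard error 0.23, 95% interval -0.32 to 0.66, adjusted p = 0.696 from edgeR).

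Il4ra (chromosome 7, 125552271 to 125579474) encodes the chain that binds IL-4 and also takes part in the IL-13 receptor. Of the 5 chains described here that belong to the common gamma chain family (Il2rg, Il2ra, Il15ra, Il4ra and Il21r), it varied most between pre-exposed mice, with 82.1, 30.7, 72.4, 100.5 and 21.3 CPM, against 100.03, 66.6, 110, 59.3 and 94.9 CPM in naïve mice. Pre-exposed mice 2 and 5 lay below all naïve mice, and the other 3 lay within the naïve range. The log2 fold change was -0.48 (standard error 0.37, 95% interval -1.27 to 0.30, adjusted p = 0.443 from edgeR), an interval that reaches past a 2-fold decrease. Il21r (chromosome 7, 125603252 to 125634397), next to Il4ra, encodes the private chain for IL-21. It had 177, 179, 199.7, 244 and 106 CPM in pre-exposed mice, against 209, 187, 219.8, 172 and 173 CPM in naïve mice. Only pre-exposed mouse 5 lay below the naïve range and only mouse 4 above it, and the log2 fold change was -0.08 (standard error 0.23, 95% interval -0.58 to 0.41, adjusted p = 0.856 from edgeR).

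Il6ra (chromosome 3, 89869324 to 89913196) encodes the ligand-binding chain of the IL-6 receptor, which signals through gp130. Its levels were 27.5, 35.4, 17.4, 19.4 and 4.18 CPM in pre-exposed mice, against 8.0, 11.1, 10.3, 11.5 and 16.2 CPM in naïve mice. Pre-exposed mice 1 to 4 lay above every naïve mouse and mouse 5 lay below every naïve mouse. At least 4 of 5 pre-exposed mice above all naïve mice was also the pattern of 14.2% of all genes. Il6ra had the largest log2 fold change of the 10 chains, 0.90 (standard error 0.41, 95% interval 0.03 to 1.78, p = 0.0444, adjusted p = 0.192 from edgeR), and an exact permutation test of mean log2 CPM gave p = 0.325. The smallest p that this exact test can give with 5 against 5 mice is 0.00794. Gm46811, a long non-coding RNA gene, lies within Il6ra, so reads there are uncertain.

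Il27ra (chromosome 8, 84030286 to 84042600) encodes the private chain of the IL-27 receptor, which also signals through gp130. It had 332, 412, 431, 587 and 150.1 CPM in pre-exposed mice, against 329, 363, 455, 433 and 596 CPM in naïve mice. Pre-exposed mice 1 to 4 lay within the naïve range and mouse 5 below it. The log2 fold change was -0.18 (standard error 0.31, 95% interval -0.84 to 0.47, adjusted p = 0.754 from edgeR). With pre-exposed mice 2 to 4 alone it was 0.07, and with mice 1 and 5 alone -0.80 (adjusted p = 0.314 from edgeR). The end of Il27ra overlaps Palm3.

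Il10ra (chromosome 9, 45253837 to 45269149) encodes the ligand-binding chain of the IL-10 receptor. It had 92.9, 53.4, 49.6, 72.0 and 12.9 CPM in pre-exposed mice, against 25.8, 33.6, 24.6, 37.6 and 35.4 CPM in naïve mice. As for Il6ra, pre-exposed mice 1 to 4 lay above the naïve range and mouse 5 below it. The log2 fold change was 0.85 (standard error 0.37, 95% interval 0.05 to 1.65, p = 0.0383, adjusted p = 0.177 from edgeR), and the exact permutation test gave p = 0.254. Mir7086 lies within the gene.

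Ifngr1 (chromosome 10, 19591949 to 19610229) encodes the ligand-binding chain of the IFNγ receptor, and Ifngr2 (chromosome 16, 91547059 to 91564007) its signalling partner. Ifngr1 was high in all libraries and Ifngr2 low, so the sequences upstream of both starts are shown for comparison, with that of Il6ra, the least abundant chain. Each is the 250 bases before the gene start in RefSeq (GRCm38.p6), read 5′ to 3′ on the gene's strand from chr10:19591699-19591948 (plus strand), chr16:91546809-91547058 (plus strand) and chr3:89913197-89913446 (minus strand). Capitals mark GC boxes, GGGCGG on either strand, which bind factors of the Sp family, and neighbouring boxes that touch or share bases form 1 run.
Ifngr1: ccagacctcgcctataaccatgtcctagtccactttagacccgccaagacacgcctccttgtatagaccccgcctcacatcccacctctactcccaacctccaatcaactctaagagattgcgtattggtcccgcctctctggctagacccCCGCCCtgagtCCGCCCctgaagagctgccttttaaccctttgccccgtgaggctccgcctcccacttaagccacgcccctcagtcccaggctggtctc
Ifngr2: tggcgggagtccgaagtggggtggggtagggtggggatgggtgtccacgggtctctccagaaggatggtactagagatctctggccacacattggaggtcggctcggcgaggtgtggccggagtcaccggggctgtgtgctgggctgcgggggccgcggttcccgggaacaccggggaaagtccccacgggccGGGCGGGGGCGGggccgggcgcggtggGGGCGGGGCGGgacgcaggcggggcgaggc
Il6ra: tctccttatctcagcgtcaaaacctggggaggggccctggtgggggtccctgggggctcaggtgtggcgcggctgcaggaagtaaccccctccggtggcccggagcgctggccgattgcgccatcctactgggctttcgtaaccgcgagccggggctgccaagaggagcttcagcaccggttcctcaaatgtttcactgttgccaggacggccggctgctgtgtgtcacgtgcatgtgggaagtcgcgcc
The window of Ifngr2 held 4 GC boxes and that of Ifngr1 held 2, while that of Il6ra held 0. Of the 8 chains with a listed window of this length, 4 held a GC box, and 32.7% of 32851 such windows did. The windows of Il21r (chr7:125603179-125603428) and Il15ra did not end at the gene starts given above, and the GC box of Il21r, among these 4, lay inside its gene. A STAT site (TTCNNNGAA), a TATA box (TATAAA) and an ETS site (CCGGAAGT), also searched on both strands, were in 0 of the 8 chains' windows, and in 7.02%, 12.4% and 2.88% of all windows. These matches describe the letters only, and the motifs and the windows printed were chosen after the levels were seen.

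Ifngr1 had 1244, 739, 665, 529 and 542 CPM in pre-exposed mice, against 1586, 1094, 1069, 1303 and 789.5 CPM in naïve mice. Pre-exposed mice 2 to 5 lay below every naïve mouse, and mouse 1 lay within the naïve range. Of all genes tested, 8.8% had at least 4 of 5 pre-exposed mice below all naïve mice. The log2 fold change of Ifngr1 was -0.65 (standard error 0.28, 95% interval -1.24 to -0.06, p = 0.0330, adjusted p = 0.162 from edgeR), and the exact permutation test gave p = 0.0476, not adjusted for the 10 chains compared. In bulk libraries fewer cells of a type and less RNA per cell cannot be told apart. Ifngr2 had 24.9, 25.7, 18.2, 21.2 and 7.63 CPM in pre-exposed mice, against 20.8, 20.1, 22.3, 29.3 and 23.3 CPM in naïve mice. Its groups overlapped except for pre-exposed mice 3 and 5, which lay below all naïve mice, and its log2 fold change was -0.22 (standard error 0.30, 95% interval -0.87 to 0.42, adjusted p = 0.695 from edgeR).

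The chains varied more between pre-exposed mice than between naïve mice. Coefficients of variation were 16.8 to 56.4% in pre-exposed mice and 11.1 to 26.2% in naïve mice, and Il15ra alone varied less in pre-exposed mice (16.8%) than in naïve mice (19.7%). Most genes did likewise, since over all 12655 genes tested 77% had the larger coefficient of variation in pre-exposed mice, with a median of 41.6% in pre-exposed mice and 25.04% in naïve mice. Mouse 5 carried much of this spread. It was the lowest of the 10 libraries for 8 of 10 chains, where 29.1% of all genes were lowest there, and for 10 of 10 chains it lay below the naïve mean. The median difference of the 10 chains from the naïve mean was -1.16 on the log2 scale in mouse 5, where all genes had a median of -0.17. In pre-exposed mice 1 to 4 the median of the chains was 0.05, 0.06, 0.04 and 0.31.

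Which pre-exposed libraries entered the fit decided the calls of Il6ra, Il10ra and Ifngr1. Without pre-exposed mouse 5, edgeR called Il6ra (log2 fold change 1.14, adjusted p = 0.0229) and Il10ra (1.07, adjusted p = 0.0130) higher, and 9.17% of all genes were called higher and 5.61% lower in that fit. Without pre-exposed mouse 1, it called Ifngr1 lower (-0.92, adjusted p = 0.0276), where 3.89% of all genes were called lower and 9.51% higher. Mouse 1 was the library with the lowest sum of the markers listed for γδ T cells, Cd3 genes included, and the part of that in Ifngr1 was not tested. With each other library left out, 0 of 10 chains were called, where 53 to 543 of the 12655 genes were. Pre-exposed mice 2 to 4 against the 5 naïve mice gave calls for all 3, with log2 fold changes of 1.09 for Il6ra (adjusted p = 0.0167), 0.84 for Il10ra (adjusted p = 0.0101) and -0.91 for Ifngr1 (adjusted p = 0.0116 from edgeR), but there 14.9% of all genes were called higher and 14.9% lower. Pre-exposed mice 1 and 5 against the naïve mice gave 0 of 10 calls, where 0.182% of all genes were called higher and 0% lower. The log2 fold changes in that fit were 0.60 for Il6ra, 0.82 for Il10ra and -0.34 for Ifngr1, with edgeR's adjusted p between 0.477 and 0.681, and the difference between these mice and mice 2 to 4 was not tested. After a trend with gene length was removed the values were 1.04, 0.96 and -0.72, and 0 of 10 chains were called, where 1.38% of all genes were called higher and 0.308% lower. These 3 chains kept their sign in all 23 alternatives, but so did Il4ra and Ifngr2, which were not called in any of them.

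**Figure D3:**
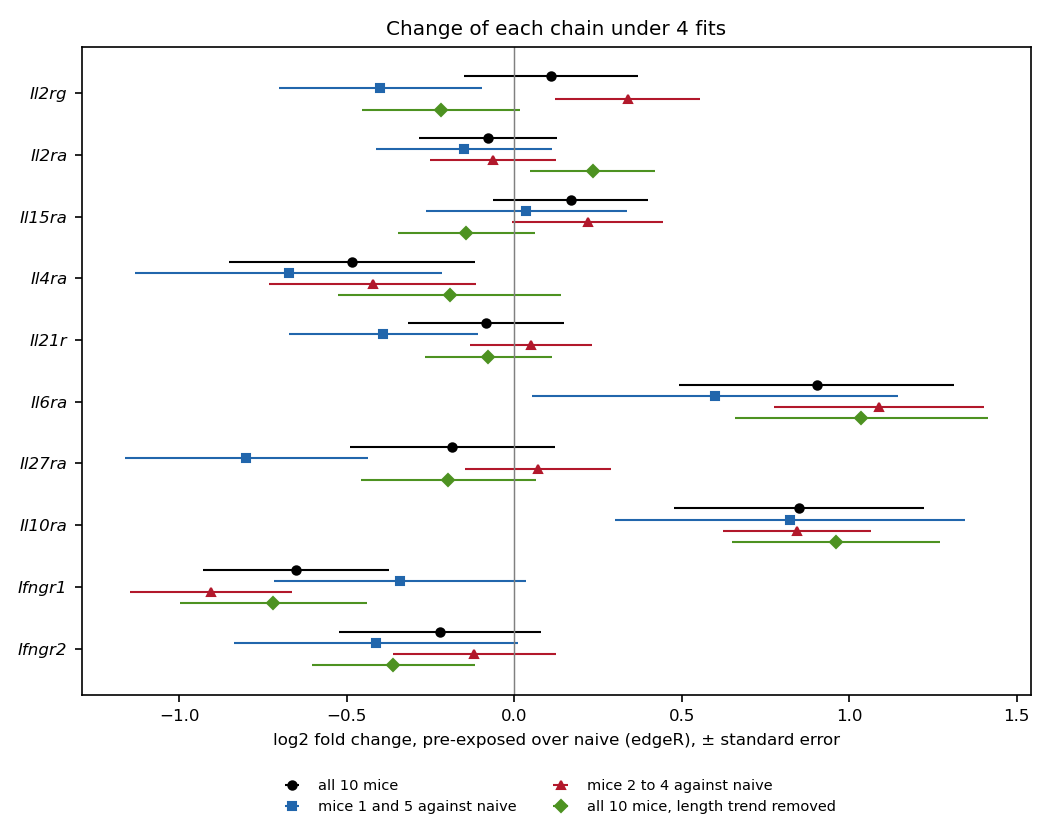
Log2 fold change of each chain, pre-exposed over naïve, with its standard error, from edgeR with all 10 mice (black circles), with pre-exposed mice 1 and 5 (blue squares), with pre-exposed mice 2 to 4 (red triangles), and with the length trend removed (green diamonds). Il6ra and Il10ra lay above 0 and Ifngr1 below 0 in all 4 fits, while Il2rg lay on both sides of 0.

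Markers of myeloid cells were above the naïve range in the same 4 pre-exposed mice as Il6ra and Il10ra. The sum of 7 monocyte and macrophage markers was 954, 1469, 618, 319 and 45.2 CPM in pre-exposed mice 1 to 5, against 35.3 to 157 CPM in naïve mice, with 4 of 7 markers called higher. Most of this sum was 1 gene in every library, Lyz2, with 778, 1250, 536, 244 and 26.9 CPM in pre-exposed mice and 29.6 to 141 CPM in naïve mice. Cd14 and Fcgr1 were at or below 3.33 CPM in all libraries, and both were at 0 in pre-exposed mouse 5. The sum of 7 dendritic cell markers was 534, 545, 213, 147 and 26.0 CPM in pre-exposed mice, against 16.5 to 57.1 CPM in naïve mice, with 5 of 7 called higher. Thus the 4 pre-exposed mice with Il6ra and Il10ra above the naïve range also had both sums above it. In mouse 5 both sums lay inside the naïve range, whereas both chains lay below it. Within mice 1 to 4 the order of mice by Il10ra differed from that by the sums, which is a description with no test. Il10ra was highest in mouse 1, at 92.9 CPM, where the sums were 954 and 534 CPM. Mouse 2, with the highest sums, had 53.4 CPM of Il10ra, and mouse 4, with the lowest of these 4, had 72.0 CPM. Il6ra was highest in mouse 2, at 35.4 CPM.

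Foxp3, which defines regulatory T cells and is the main part of a 3-gene marker sum, was 42.5, 42.6, 25.1, 33.4 and 4.18 CPM in pre-exposed mice, against 5.07 to 17.2 CPM in naïve mice (log2 fold change 1.55, adjusted p = 0.0680 from edgeR). The sum of the 3 markers was 5.81 to 50.4 CPM in pre-exposed mice and 7.60 to 22.1 CPM in naïve mice, with 0 of 3 called. Trac, of the αβ T cell receptor, was called higher, at 269.97 to 507 CPM in pre-exposed mice and 127 to 228 CPM in naïve mice, and all 5 pre-exposed mice lay above all naïve mice (log2 fold change 1.17, adjusted p = 0.0222 from edgeR). It was the 1 of 6 αβ T cell markers called, and Cd4, the helper T cell co-receptor, had a log2 fold change of 1.87 (adjusted p = 0.0513 from edgeR). The sum of 6 αβ T cell markers was 1576 to 3289 CPM in pre-exposed mice and 1642 to 1992 CPM in naïve mice, so αβ T cell receptor RNA was present in all libraries of this γδTCR+ sort. Of 6 B cell markers, Pax5 and Ebf1 were at 0 in every library and 2 were called higher. These 2 were Ms4a1 and Cd79a (log2 fold change 2.88 each, adjusted p = 0.0366 and 0.0382 from edgeR). The sum of the 6 was 43.2 to 133 CPM in pre-exposed mice and 42.3 to 97.2 CPM in naïve mice. Most of it was Cd79b, with means of 69.6 CPM in pre-exposed mice and 67.4 CPM in naïve mice. Immunoglobulin genes took 4.50, 6.68, 1.70, 0.556 and 0.345% of counts in pre-exposed mice, against 0.0845 to 0.737% in naïve mice. The sum of 6 neutrophil markers was 75.3, 231, 39.9, 5.62 and 0 CPM in pre-exposed mice, against 0 to 22.1 CPM in naïve mice, with 1 of 6 called higher, and that of 4 NK cell markers was 618 to 3995 CPM in pre-exposed mice and 625 to 1665 CPM in naïve mice, with 0 of 4 called. The part of these cells in the levels of the chains was not tested. Pre-exposed mouse 5, with a monocyte and macrophage sum inside the naïve range, had 542 CPM of Ifngr1, below all naïve mice.

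The sum of 8 markers of IL-17-producing γδ T cells was 659, 510.1, 475, 871 and 419.7 CPM in pre-exposed mice, against 695 to 3705 CPM in naïve mice. Only pre-exposed mouse 4 reached the naïve range. Of the 8 markers 0 were called higher and 2 lower, Il23r and Cd163l1, a scavenger receptor gene of IL-17-producing γδ T cells (log2 fold change -2.41, adjusted p = 0.0238 from edgeR). Il23r stands both among these markers and among the pathway genes given here. The sum of 5 markers of IFN-γ-producing γδ T cells was 2934 to 5097 CPM in pre-exposed mice and 1746 to 2510 CPM in naïve mice, with 2 of 5 called higher. These 2 were Nkg7 and Ccl5 (log2 fold changes 1.28 and 1.51, adjusted p = 0.0108 and 0.0174 from edgeR). The other markers, Tbx21, Cd27 and Il2rb, hardly differed between the groups (-0.003, 0.11 and 0.07), so the higher sum came from Nkg7 and Ccl5. The part of these T cell subsets in the level of Ifngr1 was not tested.

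**Figure D4:**
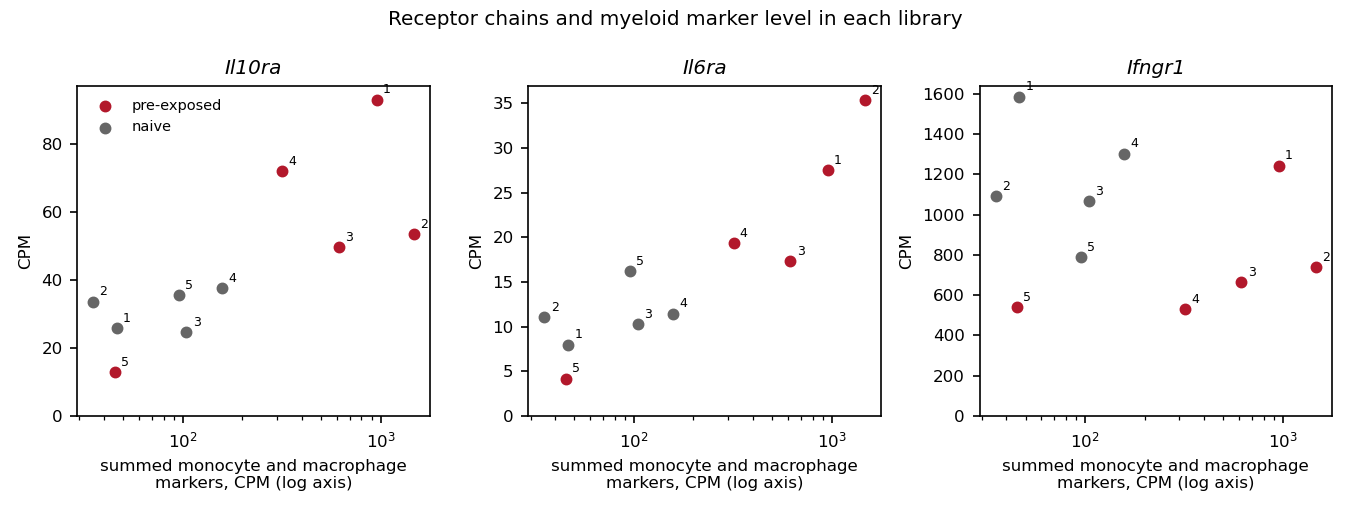
Level of Il10ra, Il6ra and Ifngr1 in CPM (vertical axes, from 0) against the summed CPM of 7 monocyte and macrophage markers (horizontal log axes) in each library, numbered by mouse. Lyz2 made up most of the sum in every library. Pre-exposed mice 1 to 4 lay to the right of all naïve mice and above them for Il10ra and Il6ra, and pre-exposed mouse 5, at 45.2 CPM of markers, lay below the naïve mice in all 3 panels.

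Ratios between chains of a receptor, per kilobase, overlapped between the groups. The ratio of Ifngr1 to Ifngr2 had a median of 36.0 (24.6 to 70.0) in pre-exposed mice and 47.3 (33.5 to 75.1) in naïve mice, so every mouse had more Ifngr1 than Ifngr2 RNA per length. Il6ra to Il6st, the gp130 gene, had a median ratio of 1.55 (0.166 to 3.79) in pre-exposed mice and 0.557 (0.224 to 0.937) in naïve mice, and Il10ra to Il10rb a median of 0.212 (0.0587 to 0.555) in pre-exposed mice and 0.117 (0.0881 to 0.197) in naïve mice. By contrast Il27ra exceeded Il6st in all mice, with a median ratio of 28.5 (7.497 to 55.4) in pre-exposed mice and 31.0 (11.3 to 43.4) in naïve mice. With GENCODE exon lengths, an alternative chosen after seeing the data, the medians were 64.1 in pre-exposed mice and 84.3 in naïve mice for Ifngr1 to Ifngr2, and 57.2 in pre-exposed mice and 62.2 in naïve mice for Il27ra to Il6st. Those of Il6ra to Il6st were then 1.203 in pre-exposed mice and 0.434 in naïve mice, and 3 of 5 pre-exposed and 0 of 5 naïve mice lay above 1 with either length. These ratios are descriptions with no test, and their pairs were chosen after values were seen.

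Some further receptor chains passed the test where the 10 did not. Of 34 further chains listed, 28 were tested, and edgeR called 9 higher and 2 lower, with a median log2 fold change of 0.06. Most of the higher ones were in the receptors for colony stimulating factors and their common beta chain, which serve myeloid cells, where 5 of 6 tested were called higher and 0 lower. Csf2ra, the GM-CSF receptor alpha chain, had 47.6, 84.9, 39.2, 27.6 and 12.7 CPM in pre-exposed mice, against 8.86 to 14.5 CPM in naïve mice (log2 fold change 1.90, standard error 0.40, adjusted p = 0.0197 from edgeR). Csf1r, the M-CSF receptor and itself among the macrophage markers, had 99.1, 77.3, 30.6, 29.1 and 0.545 CPM in pre-exposed mice, against 0.517 to 11.5 CPM in naïve mice (3.20, standard error 0.85, adjusted p = 0.0412 from edgeR). As for Il6ra and Il10ra, levels in 4 pre-exposed mice were above the naïve range, but unlike them both chains were within it in pre-exposed mouse 5. Csf2rb, Csf2rb2 and Csf3r were also called, at log2 fold changes of 3.12, 3.48 and 3.02, and Csf2rb and Csf2rb2 are near-identical copies, so reads may be split between them.

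Among further chains listed with the receptors of the common gamma chain and of the cytokine TSLP, 1 of 5 was called higher and 0 lower. This was Il13ra1, a chain of the IL-13 receptor that joins Il4ra, with 73.0, 20.2, 25.1, 12.8 and 4.00 CPM in pre-exposed mice, against 0.362 to 10.04 CPM in naïve mice (log2 fold change 2.92, standard error 0.73, adjusted p = 0.0340 from edgeR). Il7r, the IL-7 receptor alpha chain that signals with Il2rg, had 1572, 705, 811, 742 and 2432 CPM in pre-exposed mice, against 1608 to 2615 CPM in naïve mice. Pre-exposed mice 1 to 4 lay below all naïve mice and mouse 5 within their range, the opposite of what Il6ra and Il10ra showed, and the change did not pass the test (-0.75, standard error 0.34, adjusted p = 0.182 from edgeR). Il2rb, which IL-2 and IL-15 share, had a log2 fold change of 0.07 (standard error 0.23).

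Among gp130 and related chains, 1 of 6 tested was called higher and 1 lower. Lifr, the LIF receptor, was at 23.7, 7.44, 1.43, 1.39 and 0.182 CPM in pre-exposed mice, against 0 to 0.954 CPM in naïve mice (log2 fold change 4.47, standard error 1.04, adjusted p = 0.0225 from edgeR). Il23r, of the IL-23 receptor, was lower in all 5 pre-exposed mice than in any naïve mouse, at 57.7 to 80.6 CPM in pre-exposed mice and 132 to 248 CPM in naïve mice. Il6st itself had 15.2 to 42.3 CPM in pre-exposed mice and 27.9 to 65.7 CPM in naïve mice and did not pass the test (-0.57, standard error 0.36, adjusted p = 0.345 from edgeR). Among 4 tested class II chains 0 were called, and Il10rb, the partner of Il10ra, had a log2 fold change of -0.04 (standard error 0.23). Of 7 IL-1 family chains, Il1r2 (4.00) and Il1rl1 (2.96) were called higher and Il1r1 (-1.83) lower. Each of these 11 calls was lost in at least 1 alternative. Without naïve mouse 1 edgeR kept 1 of the 11, without pre-exposed mouse 2 it kept 2, without naïve mouse 2, 4 or 5 it kept 3, and without naïve mouse 3 or pre-exposed mouse 3 it kept 6, whereas all 11 were kept without pre-exposed mouse 4 or 5 and 9 without pre-exposed mouse 1. With voom 1 of 11 was kept, and with pre-exposed mice 1 and 5 alone 1 of 11.

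**Figure D5:**
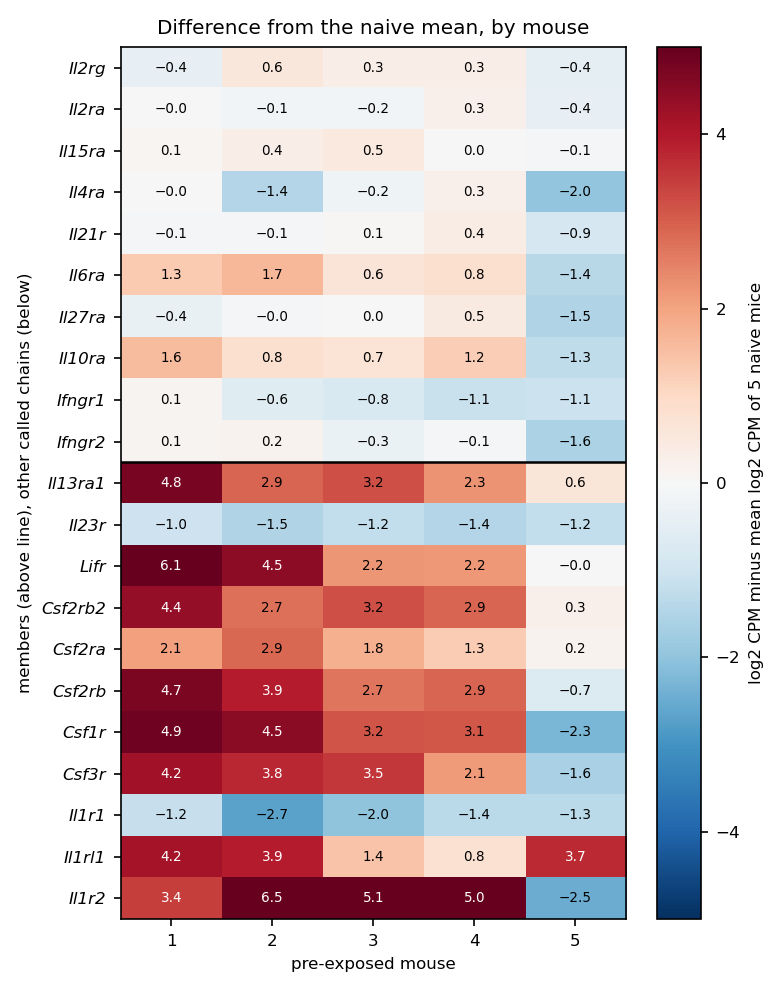
Difference of each pre-exposed mouse (columns) from the mean of the 5 naïve mice, in log2 CPM (prior count 2), for the 10 chains (above the line) and the 11 further receptor chains called by edgeR (below it), with colours ending at 5 in either direction. Column 5 is below 0 for all 10 chains, and Csf1r, Csf3r and Il1r2 are above 2 in mice 1 to 4 and below -1 in mouse 5.

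Of 12 genes listed for cytokines and subunits that these receptors bind, 7 were tested and 2 were called higher. Ifng, the ligand of Ifngr1, had 170, 196, 228, 139.6 and 333 CPM in pre-exposed mice, against 52.0 to 103 CPM in naïve mice, and was above all naïve mice in 5 of 5 (log2 fold change 1.44, standard error 0.27, adjusted p = 0.0133 from edgeR). Ifngr1 lay below the naïve range in 4 of these 5 mice. Ebi3, a subunit of IL-27, had 10.5, 8.90, 5.01, 7.22 and 0.545 CPM in pre-exposed mice, against 0.103 to 1.16 CPM in naïve mice (3.46, standard error 0.65, adjusted p = 0.0121 from edgeR). Without naïve mouse 1 both calls were lost (adjusted p = 0.0534 for Ifng and 0.0602 for Ebi3 from edgeR). Both were also lost with TREAT at a 1.5-fold threshold, with the replicate number as a block, and with pre-exposed mice 1 and 5 alone. The call of Ifng was further lost with the length trend removed, and that of Ebi3 with voom and with a term for the style of the label descriptions. Neither Il4 (log2 fold change 1.06) nor Il2 (1.13) passed the test (adjusted p = 0.101 and 0.138 from edgeR).

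Downstream of the receptors, 0 of 25 tested genes for Janus kinases, STATs and their inhibitors were called by edgeR, and 1 of them, with a lower level, had an unadjusted p under 0.05, and their median log2 fold change was -0.14. The 1 gene was Jak2, which serves the IFNγ receptor, with 264, 119, 141, 135 and 198 CPM in pre-exposed mice, against 215 to 337 CPM in naïve mice (-0.66, standard error 0.26, adjusted p = 0.130 from edgeR). Jak1, which serves most of the receptors here, had a log2 fold change of -0.53 (standard error 0.26), and Jak3, which binds the common gamma chain, of -0.45 (standard error 0.40). Socs1, an inhibitor of Janus kinases, had a log2 fold change of 0.27 (standard error 0.28).

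The gene whose log2 CPM followed each chain most closely over the 10 libraries was sought among tested genes with a mean of at least 5 CPM. These correlations over 10 libraries that share depth and group differences are descriptions only. Il27ra was nearest to Crtc2 (Pearson's r = 0.99, Spearman's rho = 0.98), Il6ra to Unc93b1, which carries nucleic acid-sensing Toll-like receptors to endosomes (0.99, 0.95), and Il10ra to Slc15a4 (0.95, 0.99). Ifngr1 was nearest to Tsc22d1 (0.98, 0.94), Il21r to Ecd (0.97, 0.88), Ifngr2 to Ralb (0.97, 0.85), Il2rg to Cpsf3 (0.97, 0.93), Il4ra to the glucose transporter gene Slc2a3 (0.94, 0.89), Il2ra to Rbm15b (0.92, 0.93) and Il15ra to Uros (0.88, 0.88). No other member of the 10 chains was the nearest gene of any chain.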

How the data were processed

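Reads were mapped to mm10 by the authors, using Subread, and they deposited whole-number counts per Entrez gene from featureCounts, not normalized. The strand setting is not given in the sources used here, and the study's methods name a SMART kit where the labels name a TruSeq kit. Groups came from the sample labels, and each library is 1 mouse per the study's methods. Replicate libraries all differed by more than counting noise (lowest chi-square per gene 21.0). Symbols and positions came from RefSeq (GRCm38.p6) for 25275 of 27179 IDs.

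In R 4.3.3, filterByExpr kept 13534 genes, and genes without a symbol (767) and immunoglobulin genes (112) were left out, as in the study's methods, so that 12655 were tested. Library sizes were scaled by TMM. The test was edgeR 4.0.16's quasi-likelihood test (robust, legacy set to FALSE) with all 10 libraries and no covariates, and Benjamini-Hochberg adjustment ran over all genes, with a threshold of 0.05. Fits on fewer libraries used the same genes. CPM are counts per 1e+06 of the TMM-scaled library size. Standard errors were the absolute log2 fold change over the root of the F statistic. Exact permutation tests were two-sided, on log2 CPM with a prior count of 2. DESeq2 1.42.0, voom and TREAT (limma 3.58.1), other scalings and filters, a replicate block, a term for the style of the label descriptions, subsets of mice, a loess length correction (span 0.3) and each library left out were alternatives. Scripts were tested on simulated data, in which edgeR's share of false calls was on average somewhat above the threshold. The chains, lists, marker sets and tests were chosen with earlier results of these data known. Named were all 10 chains, their nearest gene, called genes of each list and, of each list, up to 4 tested genes with the smallest p. Defining markers near 0 were named too. Outside this rule, Socs1 and the markers Trdc, Tcrg-C1, Cd3d, Trac, Cd4, Cd163l1, Foxp3, Lyz2, Ms4a1, Cd79a and Cd79b were named after seeing their values. They were named for their role, their level, their call or their share of a sum.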

Additional observations from a re-analysis of the deposited data

How the results depend on the processing

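Calls of the 10 chains depended on the libraries. None was called with other scalings, other filters, DESeq2, voom, TREAT, edgeR's default dispersion, a term for the style of the label descriptions, pre-exposed mice 1 and 5 alone or the length trend removed, and 3 were called with pre-exposed mice 2 to 4 alone. Leaving out each library gave 0 to 2 calls among the chains. Signs that turned belonged to chains without a call. With the label style term Il2rg was at -0.45 and Il15ra at -0.018, with pre-exposed mice 1 and 5 Il2rg was at -0.40, with mice 2 to 4 Il21r was at 0.051 and Il27ra at 0.071, and with the length trend removed Il2rg was at -0.22, Il2ra at 0.23 and Il15ra at -0.14 (log2 fold changes). With each library left out Il2rg ranged over -0.056 to 0.23 and Il21r over -0.22 to 0.021. The cause was not tested.

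Of all genes, edgeR called 796 with all libraries, 358 with its default dispersion, 40 with the label style term, 23 with mice 1 and 5, 3776 with mice 2 to 4 and 214 with the length trend removed. DESeq2 called 1350, voom 96 and TREAT 2, and leaving out each library gave 53 to 1870. With the replicate number as a block edgeR called 54 genes and 0 of the 10 chains. The numbers do not pair the mice, since same-numbered mice deviated together with correlations of -0.26 to 0.05. The scarcest chain, Il6ra, had 4.18 CPM in its lowest library, where 3 counts correspond to 0.545 CPM, a limit that covers counting error only.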
